A study of Mus musculus with 30 samples.

Results

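The appearance of rod photoreceptor transcripts in mouse retinal organoids between day 22 (D22) and day 18 (D18) of differentiation was measured across all genes of a poly(A) RNA-seq table. The comparison set the 3 D22 libraries against the 3 D18 libraries, which are 6 of the 30 libraries of a time course sampled on 10 days from D0 to D32. The organoids came from 1 clone of induced pluripotent stem cells, reprogrammed from wild-type Nrl-GFP mouse fibroblasts, in which the promoter of the rod gene Nrl drives a green fluorescent protein. D22 and D18 organoids shared the genotype and the culture conditions, which were 20% oxygen and a medium with 500 nM 9-cis retinal, 1 mM taurine and IGF1 (insulin-like growth factor) at 100 ng/ml. Each library held neural retina dissected from 12 organoids, so a value is a mean over pooled tissue. The 3 libraries of a day are biological replicates per the labels' protocols. Of 45594 genes in the table, 19897 passed the filter on low counts and were tested.

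Rods are born late in the mouse retina, after ganglion cells, cones and horizontal cells. The leucine zipper factor Nrl, acting with Crx, directs a postmitotic precursor to the rod fate, and the nuclear receptor Nr2e3, a target of Nrl, activates rod genes and represses cone genes. In the outer segment of a rod, light acts through the G protein transducin and a cGMP phosphodiesterase, which closes a cyclic nucleotide-gated channel. Each of these proteins has a rod form and, for most of them, a related cone form, so that the rod and cone programmes can be followed side by side in RNA.

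Windows around the starts of rod genes are shown first because Crx and Nrl are known to bind near them. Each window runs from 250 bases before to 50 bases after the start of the gene (RefSeq, GRCm38.p6, 5′ to 3′ on the gene's strand). Capitals mark the core of the Crx site (TAATCC, or its reverse complement GGATTA) and a half-site of the Nrl element (TGCTGA, or TCAGCA). Sag encodes rod arrestin, Cngb1 a subunit of the rod channel, Pde6b a catalytic subunit of the phosphodiesterase and Gngt1 the gamma subunit of rod transducin.
Sag, chr1:87803430-87803729, plus strand: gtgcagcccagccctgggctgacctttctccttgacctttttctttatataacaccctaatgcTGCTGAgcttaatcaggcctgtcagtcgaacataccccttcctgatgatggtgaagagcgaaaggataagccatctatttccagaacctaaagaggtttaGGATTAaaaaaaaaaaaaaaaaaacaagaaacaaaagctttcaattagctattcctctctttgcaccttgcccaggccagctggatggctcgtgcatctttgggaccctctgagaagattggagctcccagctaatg
Cngb1, chr8:95306536-95306835, minus strand: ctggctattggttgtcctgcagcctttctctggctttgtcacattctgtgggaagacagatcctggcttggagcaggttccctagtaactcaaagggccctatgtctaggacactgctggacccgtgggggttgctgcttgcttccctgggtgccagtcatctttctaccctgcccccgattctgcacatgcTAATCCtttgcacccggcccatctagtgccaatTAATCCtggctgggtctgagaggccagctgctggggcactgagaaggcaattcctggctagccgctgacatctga
Pde6b, chr5:108388123-108388422, plus strand: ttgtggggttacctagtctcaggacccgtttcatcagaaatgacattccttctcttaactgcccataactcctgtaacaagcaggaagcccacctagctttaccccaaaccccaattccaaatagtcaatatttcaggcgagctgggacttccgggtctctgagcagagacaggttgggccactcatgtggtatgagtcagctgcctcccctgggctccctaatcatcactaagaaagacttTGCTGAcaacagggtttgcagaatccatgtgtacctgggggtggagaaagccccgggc
Gngt1, chr6:3993758-3994057, plus strand: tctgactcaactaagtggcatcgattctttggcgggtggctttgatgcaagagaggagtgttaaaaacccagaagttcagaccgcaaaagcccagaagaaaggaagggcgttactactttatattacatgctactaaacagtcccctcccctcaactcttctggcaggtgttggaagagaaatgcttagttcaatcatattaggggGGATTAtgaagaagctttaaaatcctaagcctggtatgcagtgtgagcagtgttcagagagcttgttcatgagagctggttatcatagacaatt

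The Sag window held an Nrl half-site at position -187 and a Crx core at -87 from the gene's start, and these did not overlap. The Cngb1 window held 2 Crx cores, at -58 and -25. The Gngt1 window held a Crx core at -44 and the Pde6b window an Nrl half-site at -8. Windows were at hand for 11 of the 16 rod phototransduction genes called higher at D22, of which 5 held the Crx core, 4 the Nrl half-site and 1 both. Among 32851 windows of the same length, searched on both strands, 7.06% held the Crx core, 19.5% the Nrl half-site and 1.36% both. Of the 6 rod regulators called higher, all with a window, 2 held the Crx core, 2 the Nrl half-site and 1 both. These matches describe letters in a window and were not tested as binding sites.

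Library totals lay between 16773624 and 18987407 estimated counts at D22 and between 18516398 and 20190716 at D18. Values are given as CPM, counts scaled to library size with TMM factors, a level that depends on gene length and is compared here only within a gene. A gene was called higher or lower at an adjusted p below 0.05 (edgeR's quasi-likelihood test on rounded counts, Benjamini-Hochberg over all tested genes). In the reads of the gene Rpl3, the replicate 2 libraries stood apart from replicates 1 and 3 on both days. Across genes they stood apart little or not at all. At D22, log2 CPM of replicate 2 correlated at 0.9775 with replicate 1 and 0.9781 with replicate 3, against 0.9808 between replicates 1 and 3. The same 3 values at D18 were 0.9812, 0.9805 and 0.9816. Reads of the ribosomal protein gene Rpl3 were shared with its pseudogene copies, and the copies took 31.8% of them in D22 replicate 2 against 83.8% and 85.2% in D22 replicates 1 and 3. The same shares at D18 were 30.9% in replicate 2 against 83.8% and 84.8% in replicates 1 and 3. The labels name no batch, and replicate 2 is therefore given beside replicates 1 and 3 where values of single libraries are printed. Some genes below have only the change fitted over all replicates.

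The label neural retina was checked against marker genes. The retinal transcription factor Pax6 had 491, 663 and 613 CPM in D22 replicates 1, 2 and 3, against 636, 634 and 576 CPM in D18 replicates 1, 2 and 3. The retinal homeobox gene Rax had 59.4, 95.6 and 163 CPM at D22, against 113, 140 and 220 CPM at D18. Both were thus present in every library. Transcripts of the 12 tested genes of pigment epithelium summed to 250, 56.1 and 150 CPM at D22, against 126, 185 and 116 CPM at D18, and Rpe65, which defines that tissue, did not pass the filter. Fibroblast genes (11 listed) summed to between 26.1 and 83.1 CPM at D22 and between 30.7 and 64.3 CPM at D18. Of 12 lens and cornea genes, 6 passed the filter, and the alpha-crystallin gene Cryaa was not among them. No member of the fibroblast, lens, telencephalon, blood and vessel or pluripotency lists was called in either direction, although 1 lens gene was called higher without D22 replicate 1. Kdr, on the blood and vessel list, had 348, 314 and 330 CPM at D22, against 268, 207 and 184 CPM at D18, without overlap. The 8 tested genes of that list summed to 353, 319 and 333 CPM at D22, against 271, 210 and 187 CPM at D18. Kdr thus made up nearly all of the sum, and the other members were near the floor. Kdr was not called (adjusted p = 0.41), but was called higher in a fit of the 6 libraries alone (adjusted p = 0.042, and 0.0066 with the block).

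In all, 1631 genes (8.20% of those tested) were called changed between D22 and D18, of which 747 (3.75%) were higher and 884 (4.44%) lower at D22. The counts of called members that the main test gave in every gene list below are to be read against these 2 shares. Counts from another fit are to be read against the calls of that fit. The 3 D22 libraries lay above all 3 D18 libraries for 2580 genes (13%) and below them for 2551 genes (12.8%). Fitted without replicate 2 of both days, the test called 654 of 20412 genes (3.20%), 293 higher (1.44%) and 361 lower (1.77%). Of the 1631 genes, 623 were also called there, and the other 1008 kept the sign of their change. The 1631 had been called with these same libraries, so a kept sign was largely set in advance. Without D22 replicate 2 alone, 938 genes were called. Higher calls were 431 without D22 replicate 2, 447 without D18 replicate 1 and 472 without D18 replicate 2. Lower calls were 542 without D22 replicate 1, 507 without D22 replicate 2 and 584 without D18 replicate 3. Another alternative, chosen after seeing the data, took the replicate number as a block in a fit of only these 6 libraries. It called 2715 of 17060 genes, 1363 higher and 1352 lower. List counts from this block are to be read against these larger numbers.

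**Figure D1:**
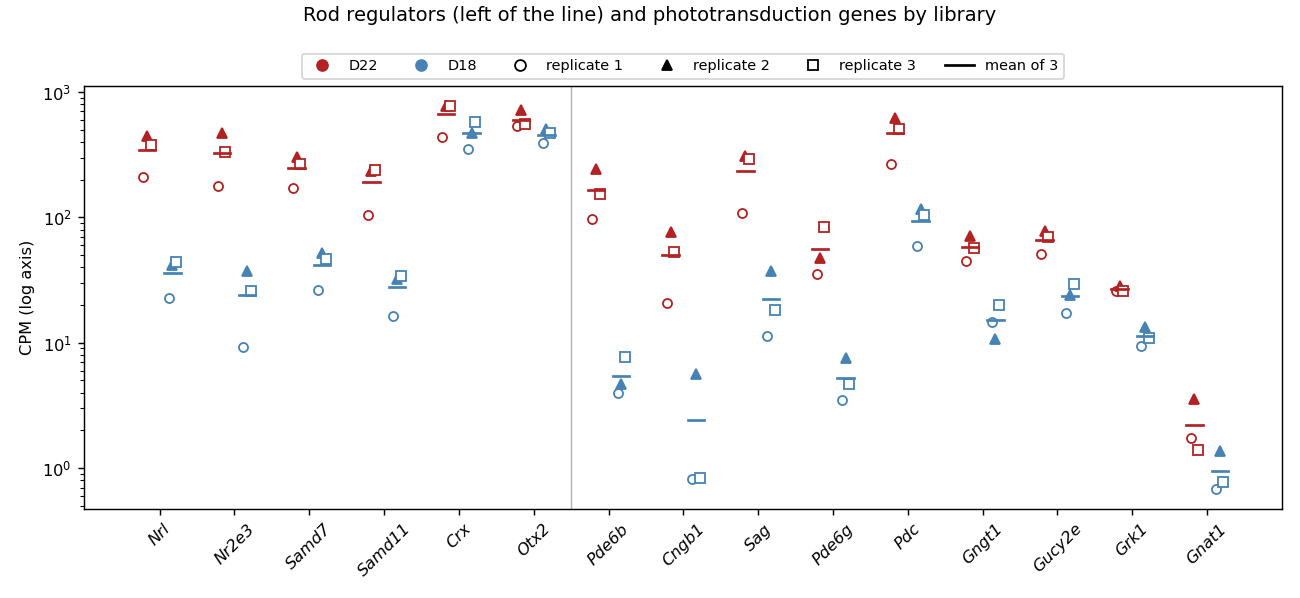
CPM (log axis) of 6 regulators and 9 phototransduction genes in each D22 and D18 library, with replicate 2 as filled triangles and bars for the mean of 3 libraries. Pde6b, Sag and Nrl lie apart between D22 and D18 in every replicate, whereas Crx, Otx2 and Gnat1 differ less.

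Of 21 listed genes of rod phototransduction, all of which were tested, 16 were called higher at D22 and 0 lower, against 3.75% of all tested genes called higher. The median log2 change of the list was 2.02, against 0 for all tested genes. For 18 of the 21, the 3 D22 libraries lay above the 3 D18 libraries, against 13% of all tested genes. By replicate number the list's median log2 difference was 1.61 in replicate 1, 1.70 in replicate 2 and 2.10 in replicate 3. Without replicate 2 of both days 14 of the 16 were still called, the exceptions being Rgs9 and Gnb1.

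The phosphodiesterase genes, whose product lowers cGMP in light, rose together. Pde6b (chromosome 5, 108388391 to 108432397, plus strand) had 97.8, 244 and 153 CPM at D22 and 3.97, 4.65 and 7.73 CPM at D18 in replicates 1, 2 and 3, without overlap. Its log2 change was 4.92 ± 0.37 (adjusted p = 1.4e-08). Pde6g, the inhibitory subunit, had 35.3, 47.7 and 84.1 CPM at D22, against 3.52, 7.59 and 4.72 CPM at D18. Replicate 3 was its highest library at D22 and replicate 2 at D18, and the log2 change was 3.40 ± 0.34 (adjusted p = 7.8e-07). Pde6a, the other catalytic subunit, was near the lower limit of detection, with 34, 51 and 61 counts at D22 and 3, 5 and 3 counts at D18. Its 146 against 11 counts gave a ratio of 13.97, with a 95% interval of 7.58 to 28.6 that covers counting error only.

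The rod channel and its neighbours in the plasma membrane also rose. Cngb1 had 20.6, 76.9 and 53.1 CPM at D22, against 0.812, 5.67 and 0.827 CPM at D18. Replicate 2 was the highest library on both days, and the log2 change was 4.38 ± 0.52 (adjusted p = 5.4e-06). Cnga1, the other channel subunit, had 13, 66 and 90 counts at D22 and 1, 0 and 0 counts at D18. The ratio of these sums, 169 against 1 count, was 178 with a 95% counting interval of 31.5 to 7066, so that its size is poorly fixed. Slc24a1, the rod sodium-calcium exchanger, had 2.00, 1.06 and 2.68 CPM at D22, against 0.226, 0.658 and 0.535 CPM at D18, a log2 change of 2.02 ± 0.48 (adjusted p = 0.0084). Its adjusted p was 0.053 without D22 replicate 3 and 0.063 without D18 replicate 1.

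Sag (chromosome 1, 87803680 to 87845158, plus strand), whose product is rod arrestin, had 108, 309 and 291 CPM at D22, against 11.2, 37.2 and 18.29 CPM at D18. Its lowest D22 library lay well above its highest D18 library, and the log2 change was 3.41 ± 0.40 (adjusted p = 4.6e-06). Rcvrn, encoding recoverin, a calcium sensor that restrains the kinase Grk1, had 3.65, 7.04 and 13.2 CPM at D22, against 0.587, 1.06 and 0.827 CPM at D18. Its log2 change was 3.27 ± 0.40 (adjusted p = 1.1e-05). Grk1 itself had 26.0, 28.4 and 25.8 CPM at D22, against 9.48, 13.5 and 10.9 CPM at D18. The 3 libraries of each day lay close together for Grk1, and its log2 change was 1.25 ± 0.29 (adjusted p = 0.0068).

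Pdc encodes phosducin, which binds the beta and gamma subunits of transducin. It had 267, 627 and 512 CPM at D22, against 59.1, 117 and 105 CPM at D18, a log2 change of 2.33 ± 0.36 (adjusted p = 0.00011). The gamma subunit gene Gngt1 had 44.7, 71.4 and 57.4 CPM at D22, against 14.6, 10.7 and 20.2 CPM at D18, a log2 change of 1.93 ± 0.30 (adjusted p = 0.00011). Gnat1, the alpha subunit of rod transducin, had 1.75, 3.55 and 1.39 CPM at D22, against 0.677, 1.37 and 0.778 CPM at D18. The 2 days were separated only narrowly, and the log2 change of 1.25 ± 0.46 did not pass the test (adjusted p = 0.10), whereas DESeq2 and the block within the 6 libraries called it (adjusted p = 0.049 and 0.033). The beta subunit gene Gnb1, which many cells use, had 503, 686 and 665 CPM at D22, against 445, 483 and 468 CPM at D18. Its log2 change was 0.41 ± 0.13, at an adjusted p of 0.0493.

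Gucy2e, a guanylate cyclase that restores cGMP, had 51.4, 77.9 and 70.0 CPM at D22, against 17.2, 24.0 and 29.2 CPM at D18, a log2 change of 1.50 ± 0.29 (adjusted p = 0.0015). The other cyclase, Gucy2f, had 10 counts in all at D22 and 1 at D18 and was not called (adjusted p = 0.15). The cyclase activators Guca1a and Guca1b had log2 changes of -0.22 ± 0.49 and 0.42 ± 0.44 and were not called (adjusted p = 0.87 and 0.68). The complex that speeds transducin's turn-off was near the threshold in its 3 genes. Rgs9bp had a log2 change of 1.19 ± 0.36 (adjusted p = 0.0412), Rgs9 of 0.74 ± 0.23 (adjusted p = 0.0496) and Gnb5 of 0.44 ± 0.17 (adjusted p = 0.11). The call of Rgs9bp rested on single libraries, with an adjusted p of 0.54 without D22 replicate 3, 0.20 without D18 replicate 1 and 0.12 without D18 replicate 3. The calls of Rgs9 and Gnb1 were lost in 5 and 5 of the 6 fits that left out 1 library, with adjusted p up to 0.27 and 0.23, and Gnb1 had 0.05 with the replicate number as a block.

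Among 17 listed regulators of photoreceptors, 6 were called higher and 0 lower, with a median log2 change of 0.46. Nrl (chromosome 14, 55518978 to 55524981, minus strand) had 210, 443 and 378 CPM at D22, against 22.8, 41.7 and 44.4 CPM at D18. No D22 library came near the D18 range, and the log2 change was 3.24 ± 0.32 (adjusted p = 7.8e-07). Nr2e3 (chromosome 9, 59942771 to 59960659, minus strand) had 177, 469 and 330 CPM at D22, against 9.21, 37.1 and 25.9 CPM at D18, a log2 change of 3.76 ± 0.42 (adjusted p = 4.2e-06). Replicate 1 was again the lowest on both days. Nr2e3 overlaps the predicted genes Gm15507 and Gm7616, whose reads may not be told apart from its own. Those 2 genes averaged 2.31 and 2.29 CPM at D22.

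Samd7 and Samd11 encode partners in a Polycomb complex that silences non-rod genes in rods. Samd7 had 170, 304 and 266 CPM at D22, against 26.2, 51.9 and 46.8 CPM at D18, a log2 change of 2.57 ± 0.31 (adjusted p = 6.7e-06). Samd11 had 105, 234 and 237 CPM at D22, against 16.3, 32.28 and 34.3 CPM at D18, a log2 change of 2.80 ± 0.34 (adjusted p = 7.4e-06). The other called members changed less. Pias3, a SUMO ligase that acts with Crx and Nr2e3, had a log2 change of 1.24 ± 0.18 (adjusted p = 5e-05). Mef2d, a factor that acts with Crx, had one of 0.70 ± 0.16 (adjusted p = 0.0072), which was lost without D22 replicate 2 (adjusted p = 0.065).

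Factors that act upstream of Nrl were expressed on both days and did not pass the test. With the replicate number as a block within the 6 libraries, however, Crx, Otx2 and Casz1 were called higher (log2 changes of 0.51, 0.42 and 0.48, adjusted p = 0.017, 0.029 and 0.014), which made 9 of the 17. Crx had 441, 780 and 778 CPM at D22, against 355, 473 and 580 CPM at D18, and its groups overlapped (log2 change 0.51 ± 0.30, adjusted p = 0.37). Otx2, which is needed for photoreceptor fate, had 532, 722 and 553 CPM at D22, against 392, 510 and 473 CPM at D18 (log2 change 0.39 ± 0.16, adjusted p = 0.14). Neurod1, Prdm1 and Rorb had log2 changes of 0.41 ± 0.23, 0.03 ± 0.27 and -0.05 ± 0.21. The cone regulators Thrb and Rxrg had log2 changes of -0.76 ± 0.29 (adjusted p = 0.12) and 0.39 ± 0.20 (adjusted p = 0.29). Thrb was called lower by DESeq2 (adjusted p = 0.021), in the fit of the 6 libraries alone (0.0079) and with the block within them (0.0028). The remaining members Casz1, Esrrb, Mef2c and Sall3 had log2 changes between -0.48 and 0.46, and none passed the test.

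Of 11 cone phototransduction genes, 10 were tested, with 3 called higher and 0 lower and a median log2 change of 0.61. Opn1sw, the short-wavelength cone opsin, had 42.5, 114 and 39.8 CPM at D22, against 7.67, 24.8 and 11.4 CPM at D18, a log2 change of 2.16 ± 0.50 (adjusted p = 0.0068). Opn1sw overlaps Calu, on the opposite strand, which averaged 212 CPM at D22 and 217 at D18. Gngt2, the cone transducin gamma subunit, had a log2 change of 1.38 ± 0.35 (adjusted p = 0.013), and Gnb3, the beta subunit, of 0.91 ± 0.27 (adjusted p = 0.0374). Without D22 replicate 2, and likewise without D18 replicate 1, none of the 3 was called, and without replicate 2 of both days only Opn1sw was (adjusted p = 0.034). Pde6c, the cone phosphodiesterase, had 22.5, 14.3 and 19.2 CPM at D22, against 24.5, 56.0 and 38.3 CPM at D18, with a log2 change of -1.08 ± 0.40 that did not pass (adjusted p = 0.10). It was called lower by limma on CPM plus 1 (adjusted p = 0.042), in the fit of the 6 libraries alone (0.047) and with the block within them (0.04), where 2 cone genes were called lower. Cone arrestin Arr3, Pde6h, Cnga3, Cngb3, Gnat2 and Slc24a2 were not called, and Opn1mw, the middle-wavelength opsin, did not pass the filter.

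Rod genes were set beside their cone counterparts in 10 pairs. The cone gene Pde6c stands in 2 of them, with Pde6a and with Pde6b, so the pairs are not all separate. The rod gene alone was called higher in 7 pairs, both genes in 2 (Gnb1 and Gnb3, Gngt1 and Gngt2) and neither in 1 (Gnat1 and Gnat2). The rod log2 change exceeded the cone log2 change in 9 pairs, the exception being Gnb1 and Gnb3. In the pair of Pde6b and Pde6c the changes were 4.92 and -1.08, and in the pair of Cngb1 and Cngb3 they were 4.38 and 0.39 (SE 0.28, adjusted p = 0.49). The difference between the 2 genes of a pair was not tested.

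**Figure D2:**
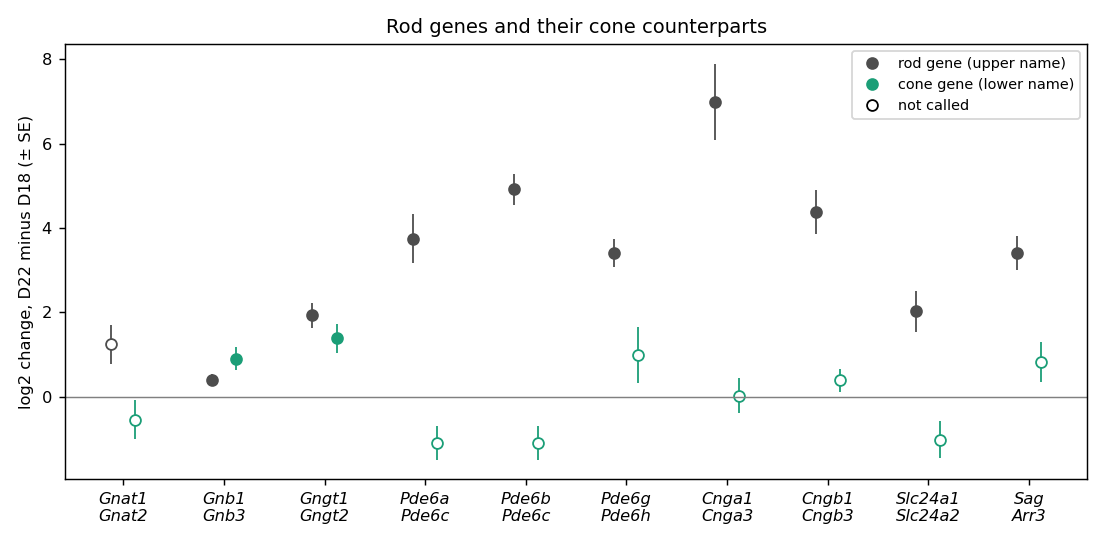
Log2 change, D22 minus D18, of each rod gene and its cone counterpart in 10 pairs, with error bars of 1 SE from the edgeR fit and open points for genes not called. The rod points lie above the cone points in all pairs but Gnb1 and Gnb3.

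Structural genes of the outer segment, the stack of membrane discs in which light is detected, changed in the same direction. Of 20 listed, 19 were tested, and 16 were called higher and 0 lower, with a median log2 change of 1.28. In all 19, the D22 libraries lay above the D18 libraries, against 13% of all tested genes. Impg1, a proteoglycan of the matrix between photoreceptors, had 4.00, 13.2 and 19.5 CPM at D22, against 0.541, 0.911 and 0.195 CPM at D18, a log2 change of 4.47 ± 0.47 (adjusted p = 1.9e-06). The disc-rim proteins followed: Rom1 had 50.3, 136 and 127 CPM at D22, against 5.41, 17.3 and 9.73 CPM at D18, and Prph2 had 144, 255 and 259 CPM at D22, against 19.6, 33.4 and 36.4 CPM at D18. Their log2 changes were 3.28 ± 0.37 and 2.88 ± 0.35 (adjusted p = 3.4e-06 and 6.8e-06). Rp1, which organises discs along the axoneme, had a log2 change of 3.25 ± 0.38 (adjusted p = 4.6e-06). Prom1, Mak and Fscn2 had log2 changes of 0.64, 0.56 and 1.04 and did not pass. Without replicate 2 of both days 10 of the 16 were called.

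Genes of the connecting cilium and its transport, which carries proteins into the outer segment, moved less. Of 33 tested, 6 were called higher and 0 lower, with a median log2 change of 0.16. Pcdh15, a protocadherin at the base of the outer segment, had 25.26, 79.8 and 26.2 CPM at D22, against 4.74, 4.3 and 5.89 CPM at D18, a log2 change of 3.14 ± 0.41 (adjusted p = 1.6e-05). Rpgrip1, a scaffold of the connecting cilium, had 245, 440 and 210 CPM at D22, against 104, 138 and 88.8 CPM at D18, a log2 change of 1.43 ± 0.31 (adjusted p = 0.0033). In both genes replicate 2 was the highest library at D22. Without replicate 2 of both days 3 of the 6 were called.

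Through the ribbon synapse photoreceptors signal to bipolar cells. Of its 22 genes, 9 (40.9%, against 3.75% of all tested genes) were called higher and 0 lower, with a median log2 change of 0.79. Rims1, a scaffold of the active zone, had 27.9, 77.8 and 76.0 CPM at D22, against 5.14, 11.2 and 10.31 CPM at D18, a log2 change of 2.77 ± 0.33 (adjusted p = 5.1e-06). The complexin gene Cplx4 had a log2 change of 2.17 ± 0.28 (adjusted p = 1.9e-05) and the calcium channel subunit Cacnb2 of 1.91 ± 0.34 (adjusted p = 0.00048). By replicate number the Cacnb2 log2 differences were 0.62, 3.20 and 1.97 in replicates 1, 2 and 3. The synaptic vesicle gene Syp, used by many neurons, had a log2 change of 0.83 ± 0.28 and did not pass (adjusted p = 0.073). With the replicate number as a block within the 6 libraries, 16 of the 22 were called higher.

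Of 10 tested genes of the visual cycle, which regenerates the chromophore, 4 (40%) were called higher and 0 lower, against 3.75% of all tested genes called higher. Their median log2 change was 0.68. Rdh8, the outer segment retinol dehydrogenase, had 15.0, 19.5 and 26.8 CPM at D22, against 0.948, 0.506 and 1.46 CPM at D18, a log2 change of 4.38 ± 0.33 (adjusted p = 4.8e-08). Rbp3, the retinoid carrier between photoreceptors and pigment epithelium, had 1204, 2440 and 1978 CPM at D22, against 446, 710 and 769 CPM at D18, a log2 change of 1.55 ± 0.25 (adjusted p = 0.00016). Rdh12 and Rlbp1 were the other genes called, with log2 changes of 1.79 ± 0.21 and 2.11 ± 0.40. In these libraries the medium supplied 9-cis retinal on both days.

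**Figure D3:**
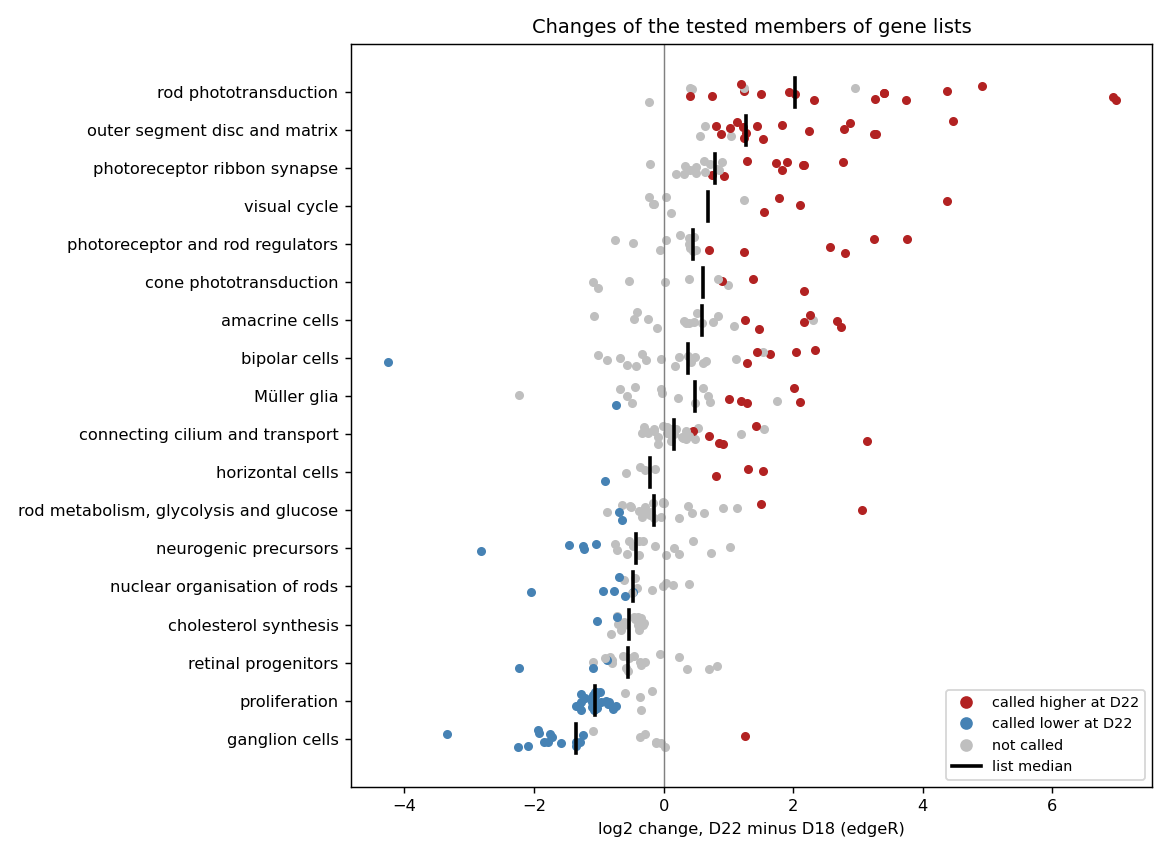
Log2 change, D22 minus D18, of each tested member of 18 gene lists, in red where called higher, in blue where called lower and in grey where not called, with a black bar for the list median. The medians run from 2.02 for rod phototransduction to -1.35 for ganglion cells.

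Genes of dividing cells fell. Of 30 proliferation genes, all tested, 26 were called lower and 0 higher, against 4.44% of all tested genes called lower, and the median log2 change was -1.05. Top2a, the topoisomerase of replicating DNA, had 193, 193 and 271 CPM at D22, against 501, 551 and 630 CPM at D18, a log2 change of -1.36 ± 0.19 (adjusted p = 3.6e-05). The mitotic kinase gene Aurkb had 23.9, 21.6 and 30.2 CPM at D22, against 52.0, 64.7 and 69.3 CPM at D18, a log2 change of -1.30 ± 0.18 (adjusted p = 2.3e-05). Both were without overlap between the days. Pcna, the replication clamp, had a log2 change of -0.59 ± 0.20 and did not pass (adjusted p = 0.068). Replicate 2 had the lowest D22 value in 22 of the 30 genes, against 6817 of all 19897 tested genes. Without replicate 2 of both days 21 of the 30 were called. In bulk tissue, fewer cells of a type and less RNA per cell cannot be told apart, here and for every list.

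Progenitor and precursor genes fell in part. Of 21 retinal progenitor genes, 3 were called lower and 0 higher, with a median log2 change of -0.55. Fgf15, a growth factor of progenitors, had 165, 117 and 195 CPM at D22, against 823, 553 and 860 CPM at D18, a log2 change of -2.23 ± 0.33 (adjusted p = 8.1e-05). Sox2 fell by 0.88 on the log2 scale (adjusted p = 0.023), a call lost without D22 replicate 1, D22 replicate 2 or D18 replicate 3 (adjusted p = 0.14, 0.063 and 0.16). Sox2 overlaps Sox2ot on the same strand, which averaged 20.9 CPM at D22 and 9.92 at D18, so reads may be shared. With the replicate number as a block 5 of the 21 progenitor genes were called lower, and 10 in the block within the 6 libraries.

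Of 20 neurogenic precursor genes, 5 were called lower and 0 higher, with a median log2 change of -0.42. Atoh7 (chromosome 10, 63100156 to 63100605, plus strand), which confers competence for the ganglion cell fate, had 4.06, 4.36 and 5.90 CPM at D22, against 27.5, 31.3 and 42.8 CPM at D18. Each D22 library was far below each D18 library, and the log2 change was -2.83 ± 0.29 (adjusted p = 9.7e-07). Foxn4, which promotes amacrine and horizontal fates, had 34.4, 45.5 and 61.4 CPM at D22, against 111, 130 and 148 CPM at D18, a log2 change of -1.46 ± 0.27 (adjusted p = 0.00071). Olig2 fell by 1.25 on the log2 scale (adjusted p = 0.019), a call lost without D22 replicate 1 or D18 replicate 3 (adjusted p = 0.12 in each) and without D22 replicate 2 (adjusted p = 0.051). The antiproliferative gene Btg2 was not called (log2 change 0.24 ± 0.16, adjusted p = 0.45). Of 12 genes of cell cycle exit, 2 (16.7%, against 4.44% of all tested genes) were called lower, Rbl1 and Ccnd3, and 0 higher. The Ccnd3 call was lost without D22 replicate 1, D22 replicate 2, D18 replicate 2 or D18 replicate 3 (adjusted p between 0.053 and 0.092). Within the block of the 6 libraries, 9 neurogenic genes and 4 cell cycle exit genes were called lower.

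Ganglion cell genes fell most widely among the neuronal lists by count, with 14 of 22 (63.6%) called lower and 1 (4.55%) higher. Of all tested genes 4.44% were called lower and 3.75% higher. The list's median log2 change was -1.35. Pou4f2 (chromosome 8, 78433010 to 78436645, minus strand), the factor that sets ganglion cell differentiation, had 1.03, 1.82 and 2.38 CPM at D22, against 16.8, 18.26 and 18.19 CPM at D18. This was the largest fall among the genes the naming rule admits, with a log2 change of -3.34 ± 0.46 (adjusted p = 3.1e-05). Sncg, gamma-synuclein, had 5.03, 7.45 and 10.7 CPM at D22, against 24.1, 39.8 and 46.7 CPM at D18, a log2 change of -2.25 ± 0.46 (adjusted p = 0.002). The neurofilament gene Nefm had a log2 change of -1.93 ± 0.48 (adjusted p = 0.011, and 0.061 without D22 replicate 1), whereas its relative Nefh was called higher (1.26 ± 0.35, adjusted p = 0.023). Nefm overlaps Nefl, on the opposite strand, which averaged 31.35 CPM at D22 and 93.57 at D18. The Nefh call was lost in 5 of the 6 fits that left out 1 library, with adjusted p between 0.054 and 0.096. Without D22 replicate 1, 7 of the 22 ganglion cell genes were called lower.

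Among inner neurons, amacrine cell genes were called higher in 6 of 21 cases and lower in 0, with a median log2 change of 0.59. Gad1, which makes the transmitter GABA, had 38.3, 78.5 and 39.0 CPM at D22, against 6.32, 13.8 and 4.28 CPM at D18, a log2 change of 2.68 ± 0.36 (adjusted p = 2e-05). The amacrine factor Tfap2a had 19.4, 56.1 and 29.4 CPM at D22, against 4.29, 14.7 and 2.92 CPM at D18, a log2 change of 2.26 ± 0.49 (adjusted p = 0.0035). Its relative Tfap2b did not pass (1.09 ± 0.54, adjusted p = 0.26). Slc6a5, the glycine transporter, had a log2 change of 2.17 ± 0.37 (adjusted p = 0.00035). Without D18 replicate 1, 3 of the 21 were called, and 12 in the block within the 6 libraries.

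Of 8 tested horizontal cell genes, 3 (37.5%) were called higher and 1 (12.5%) lower, and their median log2 change was -0.21. Calb1, Tmem130 and Sept4 had log2 changes of 1.53, 1.31 and 0.81, and Onecut1, the factor that specifies horizontal cells, of -0.90 ± 0.26 (adjusted p = 0.0316). Leaving out single libraries left 1 or 2 of the 3 higher calls, and in these fits Onecut1 kept its call only without D22 replicate 2. Without replicate 2 of both days 0 of the 3 higher calls was left, and Onecut1 was called lower (adjusted p = 0.02). Of 23 bipolar genes, 5 (21.7%) were called higher and 1 (4.35%) lower, against 3.75% and 4.44% of all tested genes. When any single library was left out, 2 or 3 were called higher. Without replicate 2 of both days 2 were called higher and 0 lower. Car8 had a log2 change of 1.65 ± 0.33 (adjusted p = 0.0017, and 0.069 without replicate 2 of both days). Bhlhe23 had 0, 0 and 2 counts at D22 against 23, 10 and 15 counts at D18. Grm6, a metabotropic glutamate receptor gene, had 0.154, 0.253 and 0.298 CPM at D22, against 0.451, 0.354 and 0.243 CPM at D18. Pcp2, of rod bipolar cells, had 73.2, 57.0 and 83.7 CPM at D22, against 35.6, 53.9 and 63.5 CPM at D18, and was not called (adjusted p = 0.26).

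Of 19 Müller glia genes, 5 (26.3%) were called higher and 1 (5.26%) lower, against 3.75% and 4.44% of all tested genes. The list's median log2 change was 0.48. Rlbp1, the retinaldehyde-binding protein named above with the visual cycle, had 42.3, 38.04 and 51.2 CPM at D22, against 6.32, 14.4 and 9.87 CPM at D18. Crym, a thyroid hormone-binding protein, had 130, 76.3 and 173 CPM at D22, against 31.5, 33.4 and 28.7 CPM at D18, a log2 change of 2.02 ± 0.29 (adjusted p = 4.5e-05). The glutamate transporter Slc1a3 had a log2 change of 1.20 ± 0.30 (adjusted p = 0.012, and 0.064 without D18 replicate 2). Car14 was the gene called lower, with a log2 change of -0.73 ± 0.22 (adjusted p = 0.0349), a call that was lost on leaving out any single library (adjusted p up to 0.16). In the block within the 6 libraries 8 of the 19 were called higher and 4 lower. For 6 of the 19 genes the D22 libraries lay above the D18 libraries, and for 5 below, against 13% and 12.8% of all tested genes. The list summed to 2202, 1898 and 2395 CPM at D22, against 2618, 2341 and 2477 CPM at D18. Dkk3, its highest member not called, averaged 739 CPM at D22 and 1175 at D18 (adjusted p = 0.17). It was called lower in the fit of the 6 libraries alone (adjusted p = 0.022).

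Genes of the ciliary margin and optic stalk were called lower in 4 of 11 cases and higher in 0. Gja1, connexin 43, had a log2 change of -1.14 ± 0.26 (adjusted p = 0.006). Without D22 replicate 2 none of the 4 was called, with Gja1 at an adjusted p of 0.057. Without D22 replicate 1 the count was 2, and without D18 replicate 3 it was 1. In pigment epithelium genes, 1 of 12 tested was called lower (Otx1, shared with the ciliary margin list) and 0 higher, against 4.44% of all tested genes called lower. The Otx1 call was lost without D22 replicate 1, D22 replicate 2 or D18 replicate 3 (adjusted p = 0.053, 0.12 and 0.10). D22 replicate 2 had the lowest D22 value in 11 of the 12, against 6817 of all 19897 tested genes. Transthyretin, Ttr, had 136, 1.87 and 53.8 CPM at D22, against 20.6, 120 and 23.2 CPM at D18, so that replicate 2 ran against replicates 1 and 3.

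Listed chromatin and nuclear envelope genes were called lower in 6 of 15 cases and higher in 0, with a median log2 change of -0.47. Hmga2, a chromatin protein of immature cells, had 5.24, 4.56 and 6.85 CPM at D22, against 22.5, 17.05 and 29.1 CPM at D18, a log2 change of -2.04 ± 0.39 (adjusted p = 0.0011). Lbr, the lamin B receptor, which tethers heterochromatin to the envelope and is lost from mature mouse rods, had 61.1, 57.1 and 59.9 CPM at D22, against 97.9, 96.7 and 91.6 CPM at D18. The libraries of a day lay close together for Lbr, with a log2 change of -0.68 ± 0.09 (adjusted p = 2.8e-05). Lmnb1 had a log2 change of -0.76 ± 0.12 (adjusted p = 0.00017). The linker histone gene H1f0 was not called (0.15 ± 0.15, adjusted p = 0.66).

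Of 26 genes of rod metabolism and glycolysis, 2 were called higher and 2 lower (7.69% each way, against 3.75% and 4.44% of all tested genes), with a median log2 change of -0.15. Nxnl1, which encodes the rod-derived cone viability factor, had 9.14, 14.8 and 16.0 CPM at D22, against 1.04, 2.28 and 1.46 CPM at D18, a log2 change of 3.07 ± 0.32 (adjusted p = 1.4e-06). A single higher call was left without D22 replicate 2, D18 replicate 1 or D18 replicate 2, and 1 lower call without D22 replicate 1, D22 replicate 2 or D18 replicate 2. Of 11 genes of long-chain fatty acids, 4 were called higher and 2 lower, with 1 lower without D22 replicate 1, D22 replicate 3 or D18 replicate 2. Elovl2, an elongase on the route to docosahexaenoic acid of disc membranes, had 111, 151 and 129 CPM at D22, against 43.2, 63.5 and 57.2 CPM at D18, a log2 change of 1.25 ± 0.24 (adjusted p = 0.0013). Fads1, a desaturase, was lower by a log2 change of -0.51 ± 0.11 (adjusted p = 0.0035). Of 18 cholesterol synthesis genes 2 were called lower, Lss among them, although all 18 had a negative log2 change, and 15 were called in the block within the 6 libraries. None was called without D22 replicate 1, and 1 without D22 replicate 3, D18 replicate 1 or D18 replicate 2. The Lss call was lost without D22 replicate 1, D22 replicate 3, D18 replicate 1 or D18 replicate 2 (adjusted p between 0.059 and 0.20).

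Other named genes with large changes lay outside these lists. Bpifb6 had 10.27, 17.8 and 21.9 CPM at D22, against 0.271, 0.506 and 0.632 CPM at D18, a log2 change of 5.14 ± 0.42 (adjusted p = 2.7e-08). The activity-regulated factor Npas4 had 6.83, 26.0 and 3.87 CPM at D22, against 0.993, 0.607 and 1.07 CPM at D18, with a log2 change of 3.77 ± 0.65 (adjusted p = 0.00036). Replicate 2 was its highest D22 library by far. The growth factor gene Fgf3 had 3.03, 1.37 and 4.17 CPM at D22, against 19.2, 13.6 and 22.0 CPM at D18, a log2 change of -2.67 ± 0.40 (adjusted p = 8.2e-05). The axonal adhesion gene Cntn2 had 20.5, 13.2 and 22.6 CPM at D22, against 115, 106 and 100 CPM at D18, a log2 change of -2.51 ± 0.57 (adjusted p = 0.0051). The Cntn2 call was lost without replicate 2 of both days (adjusted p = 0.081).

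Replicate 2 was then set against replicates 1 and 3 directly. Of the 1631 called genes, replicate 2's own difference had the called direction in 1627, and all 3 same-number pairs had it in 1622. These genes were called from the same libraries, replicate 2 included, so agreement in sign was largely set by that choice. The difference of the D22 minus D18 change between replicate 2 and the other replicates was called for 0 of 19897 genes by edgeR, with 670 (3.37%) at an unadjusted p below 0.05, and for 0 genes by DESeq2, with 639 at that level. In this test the lone replicate 2 library of a day was assumed to vary like the libraries that share a mean. With 1 such library per day, an absence of calls does not show that the changes were alike. Median log2 differences were -1.21 in replicate 2 and -0.93 in replicates 1 and 3 for proliferation genes, and 1.70 and 1.56 for rod phototransduction genes. The gene with the smallest p was the clock gene Per3, not itself called, with a log2 difference of 0.75 in replicate 2 and a mean of -0.82 in replicates 1 and 3 (edgeR adjusted p = 1). Metallothionein Mt2 had differences of -0.95 in replicate 2 and 2.69 in replicates 1 and 3 (edgeR adjusted p = 1). Among called genes, the uracil glycosylase gene Ung had 11.2, 5.83 and 13.3 CPM in D22 replicates 1, 2 and 3, against 17.6, 25.8 and 17.4 CPM in D18 replicates 1, 2 and 3. The receptor gene Lrp4 had 84.2, 172 and 93.7 CPM at D22, against 62.8, 47.7 and 68.8 CPM at D18. In both genes replicate 2 had the widest gap between the days, which did not pass as a difference between replicates (adjusted p = 1).

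**Figure D4:**
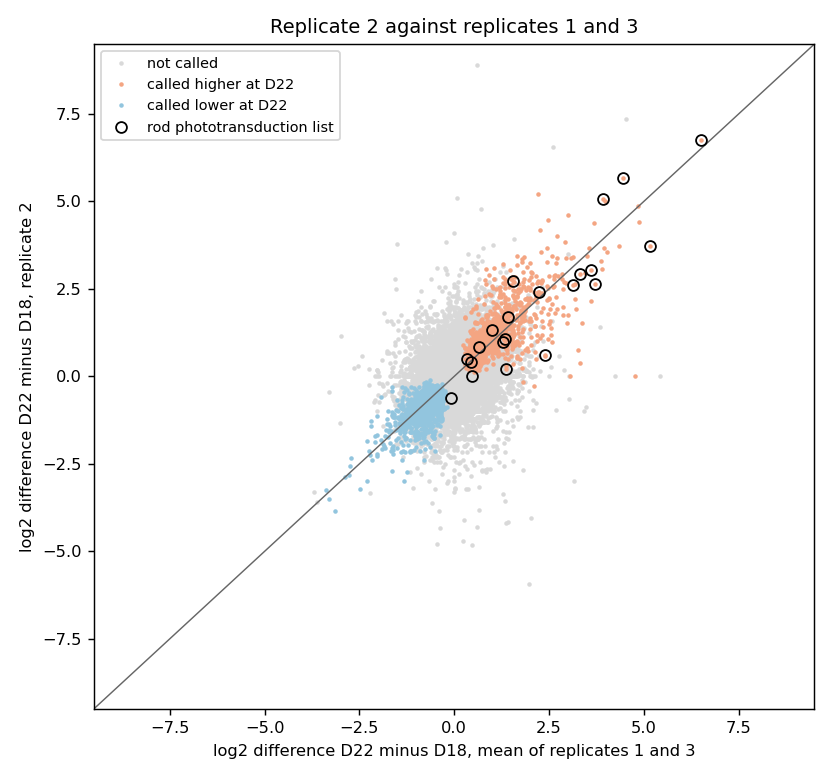
Log2 difference, D22 minus D18, of each tested gene in replicate 2 (vertical axis) against the mean of replicates 1 and 3 (horizontal axis), with called genes in colour, rod phototransduction genes circled and the line of equality. Called genes lie on the same side of 0 on both axes, with few exceptions, which calling them from these same libraries largely sets. Pde6b lies at 4.44 and 5.68.

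Rod genes also differed in level between replicates of a day. Replicate 1 was the lowest D22 library for 15 of the 21 rod phototransduction genes and the lowest D18 library for 16. Replicate 2 was the highest D22 library for 11. Over all 19897 tested genes these 3 counts were 6855, 7654 and 6599. Cngb1 had a log2 difference of 3.74 in replicate 2 and 5.17 in replicates 1 and 3, and Slc24a1 of 0.62 and 2.40. Pde6b had a log2 difference of 5.68 in replicate 2 and 4.44 in replicates 1 and 3, and Gngt1 of 2.73 and 1.56. None of these gaps between replicates passed the test (adjusted p = 1).

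Immediate early genes, which respond rapidly to stimulation, set replicate 2 apart on both days. Their sum over 12 genes was 236, 594 and 195 CPM in D22 replicates 1, 2 and 3, against 212, 524 and 165 CPM in D18 replicates 1, 2 and 3. Egr1 had 76.4, 199 and 14.9 CPM at D22, against 58.0, 219 and 8.56 CPM at D18. Nr4a1 was the list's only called member, higher with a log2 change of 1.68 ± 0.34 (adjusted p = 0.0022), and lost its call without replicate 2 of both days (adjusted p = 0.088). The part of these genes, and of the Rpl3 copies, in the other replicate 2 values was not tested. The share of mitochondrially encoded counts was 4.03%, 5.18% and 4.64% in D22 replicates 1, 2 and 3, against 3.39%, 3.13% and 3.34% in D18 replicates 1, 2 and 3. All 13 mitochondrially encoded genes had a positive log2 change, with 0 called, and 8 in the block within the 6 libraries.

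The time course placed the 2 days. Nrl averaged 5.37 ± 2.79 CPM at D15, 36.3 ± 11.7 at D18, 344 ± 120 at D22, 881 ± 252 at D25 and 819 ± 114 at D32 (SD, n = 3 each). Pde6b averaged 0.42 CPM at D15, 5.45 at D18, 165 at D22, 513 at D25 and 883 at D32. Pde6b was thus still far from its later level at D22, and Nr2e3 averaged 326 CPM at D22 and 601 at D25. Gnat1, not called here, averaged 2.23 CPM at D22, 3.86 at D25 and 70.1 at D32. Opn1sw averaged 14.7 CPM at D18, 65.5 at D22, 77.7 at D25 and 4.75 at D32. Atoh7 averaged 84.3 CPM at D15, 33.9 at D18 and 4.77 at D22.

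**Figure D5:**
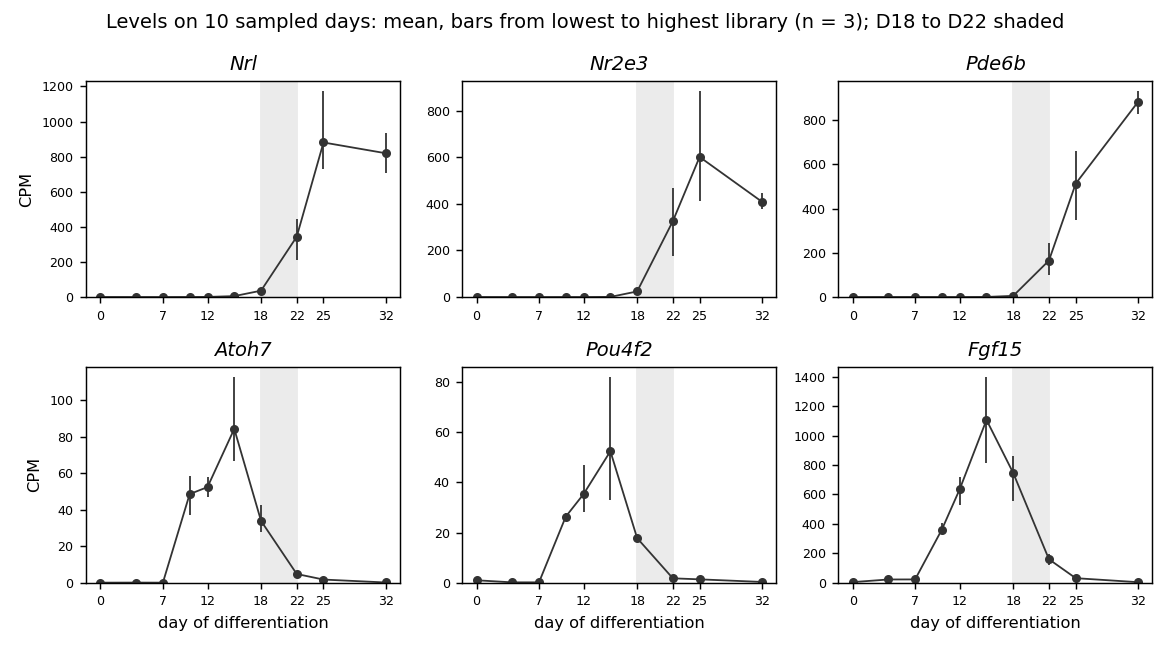
Mean CPM on each of 10 days for 6 genes, with bars from the lowest to the highest of 3 libraries and the span from D18 to D22 shaded. Nrl, Nr2e3 and Pde6b have a higher mean at D22 than at D18 and a higher one again at D25, while Atoh7, Pou4f2 and Fgf15 have their highest mean at D15.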

How the data were processed

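Poly(A) RNA of 30 libraries was sequenced, and the 6 libraries of D22 and D18 carry the comparison. The submitters' processing notes name Trimmomatic 0.36 for trimming, kallisto 0.42.4 for quantification and the build GRCm38.p4. The gene table deposited by the authors holds estimated counts, which were rounded here. The table of normalised signal deposited by the authors (CPM after TMM scaling with edgeR) served as an alternative. The step from transcripts to genes and the use of strand in counting are not given in the sources used here, so overlapping genes may share reads, as for 40 of the 158 named genes. The table of transcript estimates was not used. Each of the tables used had 3 columns that match no listed sample, which were left out.

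Genes were kept by filterByExpr (minimum count 10, minimum total 15, days as groups). The test was edgeR 4.0.16 in R 4.3.3 with TMM factors and 1 mean per day over all 30 libraries, which share an estimate of the spread, and without a replicate block. Benjamini-Hochberg adjustment ran over 19897 genes. SE is the log2 change over the square root of F. Per-replicate differences are of log2 CPM with a prior count of 2. Library totals of the 6 libraries ran from 16773624 to 20190716 counts, with TMM factors from 1.062 to 1.162. The scripts were tested on simulated data.

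Same-number libraries of D22 and D18 deviated together from their day means (r = 0.24, 0.26 and 0.29 for replicates 1, 2 and 3, across genes). The labels do not say that a number marks a shared culture. The main test therefore left such a pairing out, and fits with the number as a block are given beside it. Whether a gene passed depends in part on this choice, with 1631 calls in the main test and 2715 with the block within the 6 libraries. A separate test compared the change in replicate 2 with that in replicates 1 and 3.

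The comparison, the 32 gene lists and the rules were chosen with earlier results of these data known. Named genes are the 10 largest rises and falls among called genes with no overlap of the days and a mean of at least 10 CPM on the higher day, without predicted genes. To these were added all members of the rod, cone and regulator lists, up to 4 called members of each other list, members against a list's direction, and each list's highest member not called. Genes with the smallest p for the replicate 2 difference were also named. Pax6, Rax, Grm6, Egr1 and Rpl3, and the remaining called members given by name, were chosen for the marker and library checks or after their values were seen. Alternatives were RLE factors, no factors, DESeq2 1.42.0, 2 other filters, limma 3.58.1 on the deposited CPM plus 1 or 0.1, a replicate block, a term for a library set, the 6 libraries alone, replicates 1 and 3 alone, and each library left out. The library set joined replicate 2 of D10 to D25 with all libraries of D0 and D7, a grouping that no label gives. A few genes that the rule names are not reported here, though they count among list members.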

Additional observations from a re-analysis of the deposited data

How the results depend on the processing

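The 1631 genes called between D22 and D18 became between 1193 and 2182 under the RLE, library-size, DESeq2, filter, limma, replicate block (1723), library-set and 6-library alternatives. With replicates 1 and 3 alone 654 genes were called (293 higher, 361 lower). Library size without factors gave 557 lower calls. The replicate block within the 6 libraries, chosen after seeing the data, gave 2715 calls (1363 higher, 1352 lower). Leaving out 1 library gave 938 to 1413 calls, with 431 to 602 higher and 507 to 811 lower. The cause of these shifts was not tested. The replicate block shared 1586 of the 1631 calls, and among named genes it ended those of Gnb1 and Phgdh and no other. The replicate 2 difference was called for 0 genes under all 10 of its alternatives. Of 106 named called genes, 0 reversed and 65 kept their call without each library.

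Reversals came only in genes not called. Btg1 had -0.054 (log2) with replicates 1 and 3 alone. Prdm1 had -0.043 with limma on CPM plus 1 and -0.044 on CPM plus 0.1, -0.27 with replicates 1 and 3 alone, -0.0049 with the library set and -0.0075 with the block within 6 libraries. Cnga3 had -0.0041 with limma on CPM plus 0.1. Stmn2 had 0.0064 with library size alone. Ttr had -0.52 and -0.67 with limma on CPM plus 1 and 0.1 and -0.22 with the replicate block. Leaving out 1 library also turned the sign of these, with log2 changes of -0.046 to 0.23 for Btg1, -0.27 to 0.34 for Cnga3, -0.93 to 0.69 for Col1a1, -1.28 to 0.23 for Cryba1, -1.06 to 1.54 for Egr1, -0.50 to 0.069 for Guca1a, -0.18 to 0.79 for Guca1b, -0.12 to 0.43 for Pou5f1, -0.36 to 0.21 for Prdm1, -0.30 to 0.14 for Rorb, -0.76 to 0.093 for Sall3, -0.094 to 0.061 for Stmn2 and -0.97 to 1.54 for Ttr. The cause was not tested.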
